A study of Mus musculus with 2 samples.

Results

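The genes described here are the mouse genes for collagen chains and laminin chains, chosen by symbol (Col, a number, a, a number, or Lam with a, b or c and a digit) and by a minimum of 50 unique molecular identifiers (UMIs) over both libraries. The pattern matched 55 of the 26033 genes listed, and 50 of them reached the minimum, against 16341 genes of any kind that did. They comprised 18 basement-membrane members (collagen IV, laminins and the multiplexins Col15a1 and Col18a1), 11 fibrillar collagens and 21 other collagens. Just inside the minimum stood Col10a1 with 67 UMIs and Col24a1 with 79, and just outside it Col19a1 with 45. Col6a6, Col28a1 and Col6a4, with 36, 33 and 9 UMIs, also fell short. Single-cell RNA sequencing was done on cells sorted from whole brain as mural cells and fibroblasts, endothelial cells, astrocytes, border-associated macrophages (BAMs) and microglia. Mice of the genotype Mrc1Cre:Csf1rfl/fl gave the mutant library, and Csf1rfl/fl mice gave the control library. Both genotypes carry loxP sites in Csf1r, the gene for the receptor of CSF1 and interleukin-34, and only the mutant carries Cre from Mrc1, a gene that BAMs express. There was 1 library per genotype. The age, sex and number of mice behind each library are not given in the labels, so every difference below describes 2 libraries and none could be tested against the spread between animals.

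Collagen IV networks and laminin trimers are the scaffold of basement membranes, the thin sheets on which endothelium, pericytes and astrocyte endfeet rest in brain vessels. Laminins are trimers of 1 alpha, 1 beta and 1 gamma chain, and the alpha chain sets which cell receptors they bind. Fibrillar collagens such as types I and III form the tensile fibres of connective tissue and, in the brain, belong to the meninges, the choroid plexus stroma and the sheaths of larger vessels. Collagen VI forms beaded filaments, and types XII, XIV and XVI associate with fibrils.

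There were 8735 barcodes and 82806348 UMIs in the mutant matrix, and 8739 barcodes and 85716531 UMIs in the control matrix, and 17 barcode sequences occurred in both. After a minimum of 500 genes and removal of doublets called by Scrublet (2.60% of mutant and 2.15% of control cells), 7767 mutant and 7907 control cells remained. Cells were placed in classes by 13 lists of 8 marker genes, with at least 4 of a list switched on. These gave 225 mutant and 111 control fibroblast-like cells, 25 and 14 mural-like cells, 199 and 142 endothelial-like cells, 312 and 1500 astrocyte-like cells, and 3651 and 3558 microglia-like cells. A further 121 mutant and 339 control cells were BAM-like, 1689 and 1052 choroid plexus epithelium-like, and 102 and 89 ependymal-like. In every class the leading 10 genes held markers of no other class. Cells were gated on these same lists and mixed cells were set aside, so this is not an independent check of the classes. Of the 10 genes that lead fibroblast-like cells, 4 were themselves members. The targeted gene was read at 1231 CPM (UMIs of a gene per 1000000 non-mitochondrial UMIs of a class) in mutant and 1455 CPM in control BAM-like cells, and at 1907 and 2421 CPM in microglia-like cells. Reads from the 3′ end of the transcript do not check the deletion.

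Each molecule is counted once from its 3′ end, so levels are not divided by transcript length. Of the 42 members with at least 10 UMIs in the class where they were highest, 23 were highest in fibroblast-like cells (8.71% of all genes ranked) and 9 in mural-like cells (5.30%). Another 3 were highest in endothelial-like cells (9.35%), 4 in ependymal-like cells (14.3%), 2 in choroid plexus epithelium-like cells (5.98%) and 1 in astrocyte-like cells (12.1%). The other 8, which were Col4a3, Col4a4, Lamb1, Col18a1, Col5a3, Col20a1, Col10a1 and Col7a1, had too few UMIs in their highest class to be ranked. The groups divided by class, since 8 of the 9 members led by mural-like cells belonged to the basement membrane, and 8 of the 23 led by fibroblast-like cells were fibrillar against 3 from the basement membrane. Ranks used the mean CPM of both libraries. The leading class differed between libraries for Col4a6, Lamb2, Lamb3, Col2a1, Col11a2, Col24a1, Col27a1, Col9a2, Col22a1 and Col13a1. Of the 8 fibrillar members, Col2a1 and Col24a1 had 0 UMIs in control fibroblast-like cells. In the mutant library they kept 5 and 0 UMIs without 2 cells rich in bone genes, described below.

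**Figure D1:**
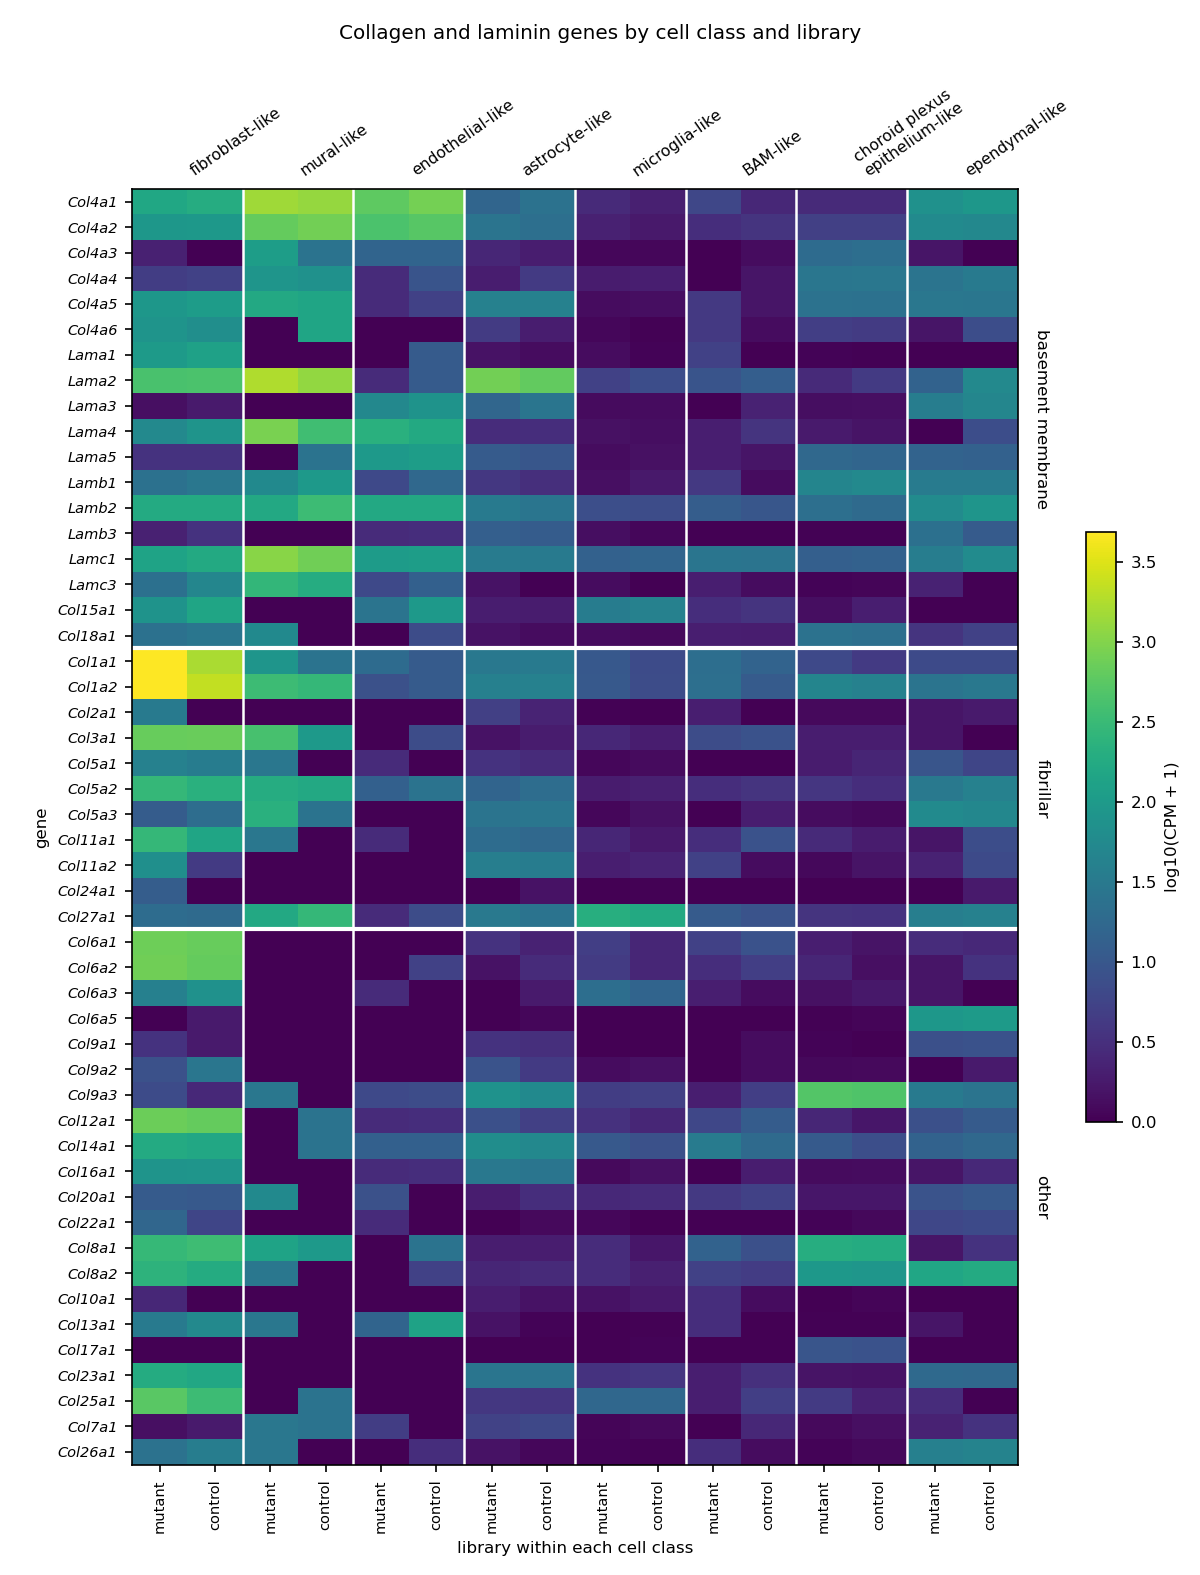
Level of each of the 50 members (rows, grouped as basement membrane, fibrillar and other) in 8 cell classes, as log10(CPM + 1), with the mutant library left of the control library in each class. The Col4a1, Col4a2, Lama4, Lamb2 and Lamc1 rows are bright in mural-like and endothelial-like cells. Other collagen IV and laminin rows, such as Col4a5, Col4a6, Lama1 and Lama2, are dim in endothelial-like cells. Col1a1, Col1a2, Col6a1, Col6a2 and Col12a1 are bright in fibroblast-like cells.

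Summed over the 18 basement-membrane members, mural-like cells had 6823 CPM in the mutant and 5487.5 CPM in the control library, from 246 and 228 UMIs. Endothelial-like cells had 1732 and 2189.9 CPM, fibroblast-like cells 1468 and 1727 CPM, and the astrocyte-like class 1007 and 835 CPM. Microglia-like cells had 66.2 and 73.9 CPM and BAM-like cells 72.1 and 60.4 CPM. Summed over the 11 fibrillar members, fibroblast-like cells had 11177 CPM in the mutant and 5075 CPM in the control library, while endothelial-like cells had 43.7 and 57.6 CPM. Of the classes named here, mural-like cells thus had the highest basement-membrane sum in both libraries, and fibroblast-like cells the highest fibrillar sum. The fibroblast-like class is not uniform. Its cells with more Slc6a13 than Slc47a1 UMIs, described below, had a basement-membrane sum of 7846 CPM in the mutant and 4666 CPM in the control library. That is above mural-like cells in the mutant library and below them in the control library.

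**Figure D2:**
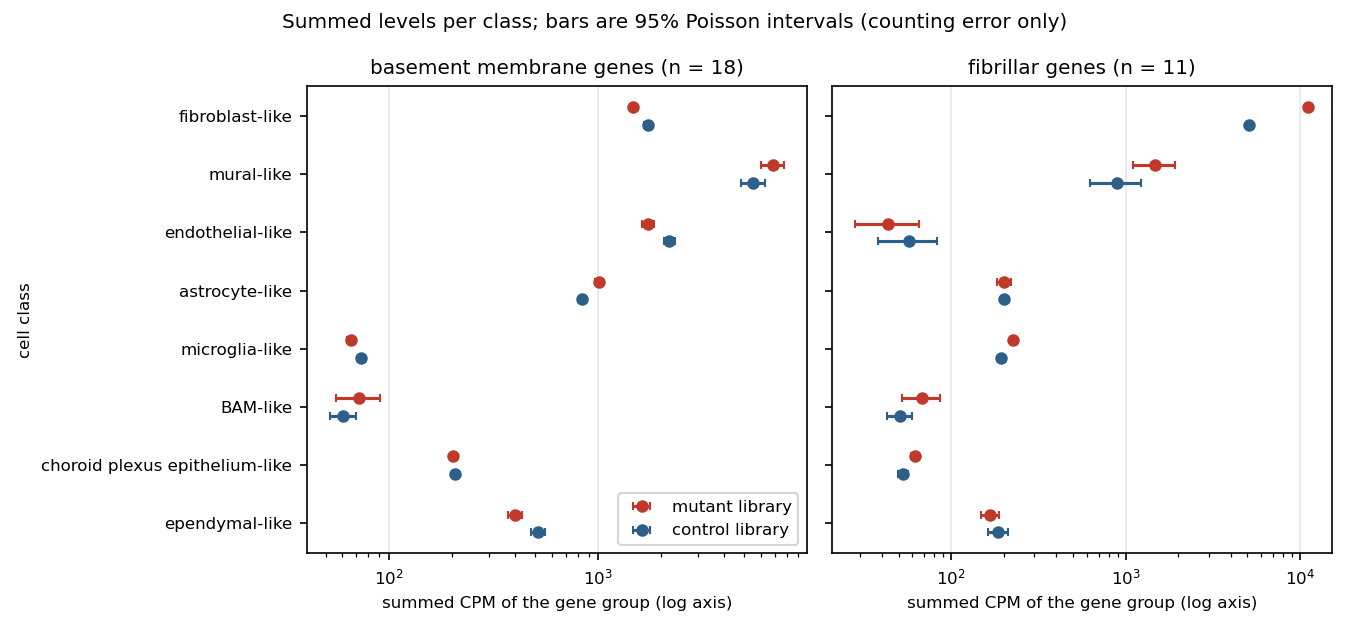
Summed CPM (log axis) of the 18 basement-membrane genes and the 11 fibrillar genes in 8 cell classes, mutant points above control points, with 95% Poisson intervals that cover counting error only. Mural-like cells are the highest for the basement membrane at 6823 and 5487.5 CPM, and fibroblast-like cells for the fibrillar genes at 11177 and 5075 CPM.

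The share of UMIs that a class holds reflects its number of cells and its level together. Fibroblast-like, mural-like and endothelial-like cells together held 24.2% of the basement-membrane UMIs of the mutant library (4835 UMIs in 423 of 449 cells) and 13.9% of those of the control library (3384 UMIs in 256 of 267 cells). Astrocyte-like cells held 10.2% of them in the mutant and 41.2% in the control library, choroid plexus epithelium-like cells 22.3% and 13.6%, and cells in no class 24.0% and 11.3%. Fibroblast-like cells held 51.5% of fibrillar UMIs in the mutant and 28.2% in the control library. Of their 27715 mutant fibrillar UMIs, 15239 lay in 1 cell. The mutant share was smaller when the top cell of each library was left out. With more markers required it was below the control share, as given under the dependence on processing. The astrocyte-like shares stood beside 312 mutant and 1500 control cells, with a summed level of 1007 and 835 CPM and a median of 6014 and 6527 non-mitochondrial UMIs per cell.

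Col4a1 (chr8:11198423-11312826, minus strand, GRCm38) and Col4a2 (chr8:11312805-11449287, plus strand) encode the chains of the most common collagen IV network. They lie head to head and their annotated genes overlap by 22 bases. In mural-like cells Col4a1 had 1470.0 CPM in the mutant and 1276 CPM in the control library, and Col4a2 had 666 and 794 CPM. In endothelial-like cells Col4a1 stood at 594 CPM in the mutant and 838 CPM in the control library, and Col4a2 at 441 and 533 CPM. Both were thus well above microglia-like cells, where Col4a1 had 1.74 and 1.08 CPM. Of endothelial-like cells, 117 of 199 mutant and 98 of 142 control cells held a Col4a1 UMI, and 82 and 69 cells held UMIs of both chains. After each cell was thinned to 1000 UMIs, 37.0% of mutant and 39.6% of control endothelial-like cells held a Col4a1 UMI, against 58.8% and 69.0% before thinning. The same thinned shares were 0.165% and 0.141% in microglia-like cells, whose median depth was 8181 and 8151.5 UMIs against 2470.0 and 3317.5 UMIs in endothelial-like cells. The promoter windows of the pair are shown because the 2 genes start within 1 shared stretch of DNA and were highest in the same class. They are 300-base RefSeq windows (GRCm38.p6) around each RefSeq start, at chr8:11312777-11313076 on the minus strand for Col4a1 and chr8:11312555-11312854 on the plus strand for Col4a2, with the 78 bases that both windows hold in capitals.
Col4a1: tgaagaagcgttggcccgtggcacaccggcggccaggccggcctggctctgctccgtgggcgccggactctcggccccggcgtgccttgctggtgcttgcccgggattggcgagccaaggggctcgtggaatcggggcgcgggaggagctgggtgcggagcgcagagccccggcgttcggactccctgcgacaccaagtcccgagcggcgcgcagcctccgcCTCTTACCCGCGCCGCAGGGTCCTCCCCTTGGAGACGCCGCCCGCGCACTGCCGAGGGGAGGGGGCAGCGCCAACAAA
Col4a2: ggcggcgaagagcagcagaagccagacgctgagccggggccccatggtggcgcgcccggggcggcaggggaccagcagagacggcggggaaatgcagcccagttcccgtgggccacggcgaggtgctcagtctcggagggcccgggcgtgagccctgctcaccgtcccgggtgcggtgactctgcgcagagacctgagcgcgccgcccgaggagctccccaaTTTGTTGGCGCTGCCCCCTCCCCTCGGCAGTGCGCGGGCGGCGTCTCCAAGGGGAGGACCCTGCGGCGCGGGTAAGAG
The motifs searched on both strands were the CCAAT box, the GC box written GGGCGG, and the TATA box written TATAAA. The Col4a1 window held 1 CCAAT and 1 GGGCGG, and the Col4a2 window 1 CCAAT and 3 GGGCGG, of which 1 GGGCGG lay in the shared bases, and neither held TATAAA. Of all 32851 RefSeq windows of this length, 37.4% held CCAAT, 35.7% GGGCGG and 13.6% TATAAA. Windows were matched for 36 of the 50 members.

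The other collagen IV pairs were found elsewhere. Col4a3 and Col4a4, whose annotated starts lie 72 bases apart on chromosome 1 and whose chains make the network of filtering epithelia, had most of their UMIs in choroid plexus epithelium-like cells. Col4a3 had 405 UMIs there in the mutant and 325 in the control library, Col4a4 had 599 and 455, and 102 and 88 cells held both. Ependymal-like cells held Col4a4, with 39 UMIs in the mutant and 38 in the control library, but 1 and 0 UMIs of Col4a3. Col4a5 and Col4a6, head to head on chromosome X with starts 1309 bases apart, were both detected in fibroblast-like cells, where Col4a5 had 88.7 CPM in the mutant and 107 CPM in the control library and Col4a6 had 80.3 and 66.0 CPM. Col4a5 was also present without much Col4a6 in astrocyte-like cells (83 UMIs against 7 in the mutant and 486 against 12 in the control library). Neighbouring collagen IV genes were thus not read together in every class.

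Among laminin alpha chains, Lama2 (chr10:26980036-27619758) makes the laminin of parenchymal and astroglial basement membranes. It had 1803 CPM in mutant and 1252 CPM in control mural-like cells and 810.1 and 636 CPM in astrocyte-like cells. In endothelial-like cells 1 of 199 mutant cells and 5 of 142 control cells held a Lama2 UMI (0.503% and 3.52%). The shares were 2.47% and 3.94% in microglia-like cells, which were read more deeply. After thinning, 0 of 154 mutant and 0 of 134 control endothelial-like cells held one, with intervals reaching 2.367% and 2.715%. The thinned microglia-like shares were 0.551% and 0.792%. The source of these few endothelial-like UMIs was not tested. Lama4, the alpha chain of the endothelial basement membrane, had 888 and 361 CPM in mural-like cells, on 32 and 15 UMIs, and 217 and 173 CPM in endothelial-like cells. Lama5, the other endothelial alpha chain, had 94.8 CPM in mutant and 111 CPM in control endothelial-like cells and was highest there in both libraries, as was Lama3 at 51.0 and 78.2 CPM. Lama1 (chr17:67697259-67822647), the alpha chain of the meningeal side of the border, had 248 UMIs in 21 mutant fibroblast-like cells and 158 UMIs in 23 control ones. The next class for Lama1 was endothelial-like cells, with 0 and 5 UMIs. Of the beta chains, Lamb2 had 181 and 182 CPM in fibroblast-like cells and 169.5 and 167 CPM in endothelial-like cells. Lamb1 had its UMIs mainly in choroid plexus epithelium-like cells at 46.8 and 53.4 CPM, and Lamb3 had 21.9 and 10.7 CPM in ependymal-like cells. Of the gamma chains, Lamc1, part of most laminins, was highest in mural-like cells at 1082 CPM in the mutant and 770.2 CPM in the control library. Lamc3 had 277 and 192.5 CPM in mural-like cells, on 10 and 8 UMIs, and 22.2 and 47.9 CPM in fibroblast-like cells.

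The fibrillar group was dominated by the chains of type I collagen. Col1a1 (chr11:94936224-94953042, plus strand) and Col1a2 (chr6:4504814-4541544, plus strand) encode them. Of fibroblast-like cells, 206 of 225 mutant and 105 of 111 control cells held a Col1a1 UMI, and 221 and 110 held a Col1a2 UMI. Thinned to 1000 UMIs, the Col1a1 shares were 54.7% and 62.2%. Free RNA is the usual floor in such data: 5.86% of mutant and 3.85% of control microglia-like cells held a Col1a1 UMI, or 1.24% and 0.877% after thinning, at median depths of 8181 and 8151.5 UMIs against 10815 and 10537 UMIs in fibroblast-like cells. Col1a2 without Col1a1 was read in choroid plexus epithelium-like cells, with 1016 UMIs in the mutant and 657 in the control library against 123 and 52 of Col1a1. Col3a1, which joins type I in the same fibrils, had 672 and 711 CPM in fibroblast-like cells, and Col5a2 had 285 and 220.4 CPM. Col27a1, a fibrillar collagen known from cartilage, differed from the other chains. It had 202 CPM in mutant and 175.5 CPM in control microglia-like cells, with UMIs in 2627 of 3651 and 2318 of 3558 cells, and made up 6379 of the 7155 fibrillar UMIs of that class in the mutant and 5528 of 6072 in the control library. Col11a2 was near the same level in astrocyte-like cells of both libraries, at 36.9 and 34.6 CPM. The RefSeq window of Col1a2 (chr6:4505368-4505667, plus strand, GRCm38.p6) is shown as that of the fibrillar gene with the most UMIs, with 2 CCAAT and 2 GGGCGG, on either strand, in capitals.
Col1a2: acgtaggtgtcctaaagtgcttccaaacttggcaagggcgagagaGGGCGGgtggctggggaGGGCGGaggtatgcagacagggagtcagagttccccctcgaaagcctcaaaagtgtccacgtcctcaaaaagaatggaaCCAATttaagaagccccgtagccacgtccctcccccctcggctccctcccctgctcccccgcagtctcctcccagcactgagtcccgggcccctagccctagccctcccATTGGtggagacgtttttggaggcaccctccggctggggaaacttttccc

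Of the other collagens, Col9a3, a chain of fibril-associated collagen IX, had 502 CPM in mutant and 477 CPM in control choroid plexus epithelium-like cells, in 1600 of 1689 and 1006 of 1052 cells. The network collagen chains Col8a1 (198 and 186 CPM) and Col8a2 (90.4 and 86.0 CPM) and the transmembrane Col17a1 (8.54 and 7.42 CPM) were read there too. Levels of both network chains were higher in fibroblast-like cells, with Col8a1 at 294.8 and 348 CPM and Col8a2 at 239 and 182 CPM. Col17a1 had at most 3 UMIs per library in microglia-like cells. Ependymal-like cells held Col6a5 at 89.6 and 100.9 CPM, Col8a2 at 154 and 178 CPM and Col26a1 at 39.3 and 43.5 CPM. In fibroblast-like cells the collagen VI chains Col6a1 (747 and 679 CPM) and Col6a2 (765 and 667 CPM), the fibril-associated Col12a1 (724 and 663 CPM) and the transmembrane Col25a1 (559.8 and 337 CPM) stood high. Mural-like cells held 0 UMIs of Col6a1 and Col6a2 in both libraries, which allows up to 83.2 CPM in the mutant and 72.2 CPM in the control library. Col15a1, a multiplexin of basement membranes, had 1106 UMIs in 829 mutant and 1289 UMIs in 915 control microglia-like cells. A thinned share of 3.77% and 4.19% of those cells stood above the 0% and 0.134% of astrocyte-like cells. Col13a1 was read in endothelial-like and fibroblast-like cells and in 0.0274% and 0.0562% of microglia-like cells.

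Fibroblast-like cells were divided by whether a cell held more UMIs of the transporter gene Slc47a1 or of Slc6a13. There were 190 Slc47a1 cells and 23 Slc6a13 cells in the mutant library, against 75 and 31 in the control library. The other 12 mutant and 5 control cells held 0 UMIs of both genes and were left out of this contrast. The basement-membrane sum was 865 CPM in Slc47a1 cells against 7846 CPM in Slc6a13 cells of the mutant library, and 851 CPM against 4666 CPM in the control library. Pericyte markers moved with this contrast, at a summed 69.2 CPM in Slc47a1 cells against 2706 CPM in Slc6a13 cells of the mutant library, with 3 of 8 at 0 in each. In the control library they summed to 33.3 CPM in Slc47a1 cells, with 3 of 8 at 0, against 6857 CPM in Slc6a13 cells, with 1 of 8 at 0. Their part in the contrast was not tested. A size rule was set for all comparisons: at least 50 UMIs, a CPM ratio of at least 1.5 or at most 0.667, and a 95% interval for counting error that excludes 1. Of 27 members measured in both libraries, 7 were higher in Slc47a1 cells in both (17.4% of all genes) and 11 were lower in both (7.38%), and none had opposite calls. The members lower in Slc47a1 cells were Col4a1, Col4a2, Col4a5, Col4a6, Lama1, Lama2, Lama4, Lamc1, Lamc3, Col15a1 and Col13a1, of which only Col13a1, a transmembrane collagen, lies outside the basement-membrane list. The 7 higher in Slc47a1 cells were Col8a1, Col8a2, Col25a1, Col14a1, Col6a1, Col6a2 and Col11a1.

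Single members showed how far Slc47a1 and Slc6a13 cells differed. Lama1 had 0 UMIs in the 190 mutant and 75 control Slc47a1 cells, which allows up to 1.36 and 3.33 CPM, against 244 UMIs in 18 of 23 and 157 UMIs in 22 of 31 Slc6a13 cells. Col4a6 had 2.71 CPM in Slc47a1 and 793 CPM in Slc6a13 cells of the mutant library, and 0 UMIs and 283 CPM in the control library. Col15a1 had 5.42 CPM in Slc47a1 and 868 CPM in Slc6a13 cells of the mutant library, and 10.0 and 641 CPM in the control library. The opposite held for Col8a1, at 324 CPM in Slc47a1 and 12.6 CPM in Slc6a13 cells of the mutant library and 451 and 49.6 CPM in the control library. Col25a1 stood at 623 CPM in Slc47a1 and 62.9 CPM in Slc6a13 cells of the mutant library, and at 449.9 and 11.5 CPM in the control library. Col3a1 and Lamb2 were near equal, with Slc47a1 over Slc6a13 ratios of 0.850 and 0.862 in the mutant and 1.01 and 1.04 in the control library. Both transporter genes are among the 8 markers of the fibroblast list, and no member is in that list.

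**Figure D3:**
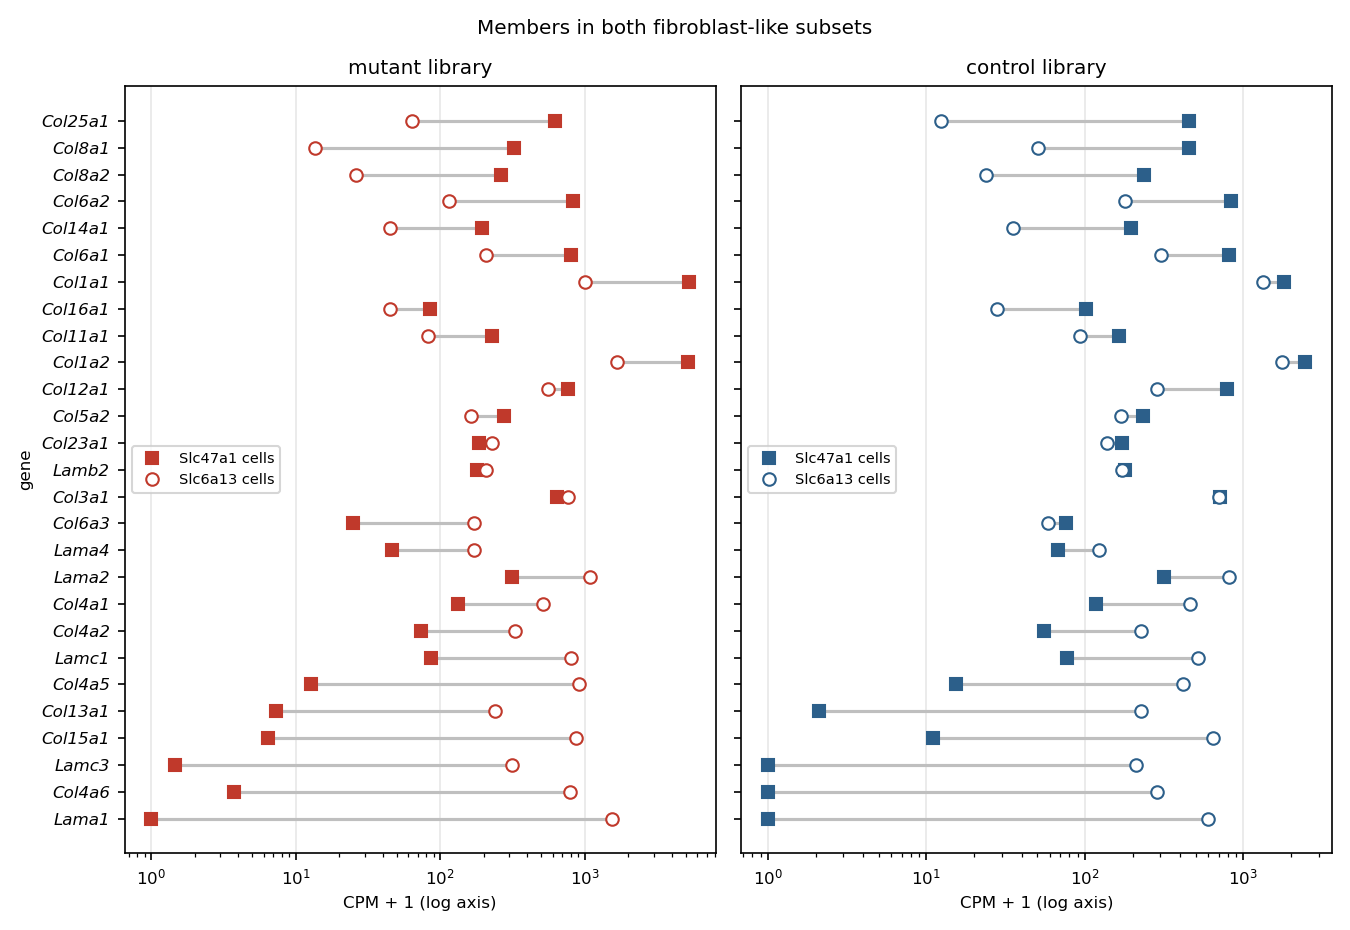
CPM + 1 (log axis) of the 27 members measured in both libraries, in Slc47a1 fibroblast-like cells (squares) and Slc6a13 fibroblast-like cells (circles), mutant library left of the control library. Lama1 has 0 UMIs in Slc47a1 cells of both libraries and 1535 and 599 CPM in Slc6a13 cells, whereas Col8a1, Col8a2 and Col25a1 are higher in Slc47a1 cells.

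Between genotypes, the summed fibrillar level of fibroblast-like cells was 11177 CPM in the mutant and 5075 CPM in the control library, a ratio of 2.20 (95% interval 2.14 to 2.26, counting error only). That ratio rested on 1 cell, and without the highest cell of each library it was 1.10. A mutant cell with 41225 non-mitochondrial UMIs held 15239 fibrillar UMIs, 55.0% of those of its class, with 8444 of Col1a1 and 6397 of Col1a2. The next mutant cell had 641 and the median mutant cell 35, against a highest of 643 and a median of 29 in the control library. The same cell held 3081 UMIs of Bglap and 1299 of Bglap2, which encode osteocalcins, the proteins that osteoblasts deposit in bone, and 1 UMI of Slc47a1. A second fibroblast-like cell of the mutant library had 183 UMIs of Bglap, 396 of the bone sialoprotein gene Ibsp and 74 of the cartilage collagen gene Col2a1. Cells with at least 10 UMIs of Bglap, Bglap2 and Ibsp together numbered 4 in the mutant library, 2 of them fibroblast-like, and 1 in the control library, which was in no class. Without them the fibrillar sum ratio was 0.959 (0.929 to 0.989), so the direction turned. This removal was chosen after the data were seen.

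**Figure D4:**
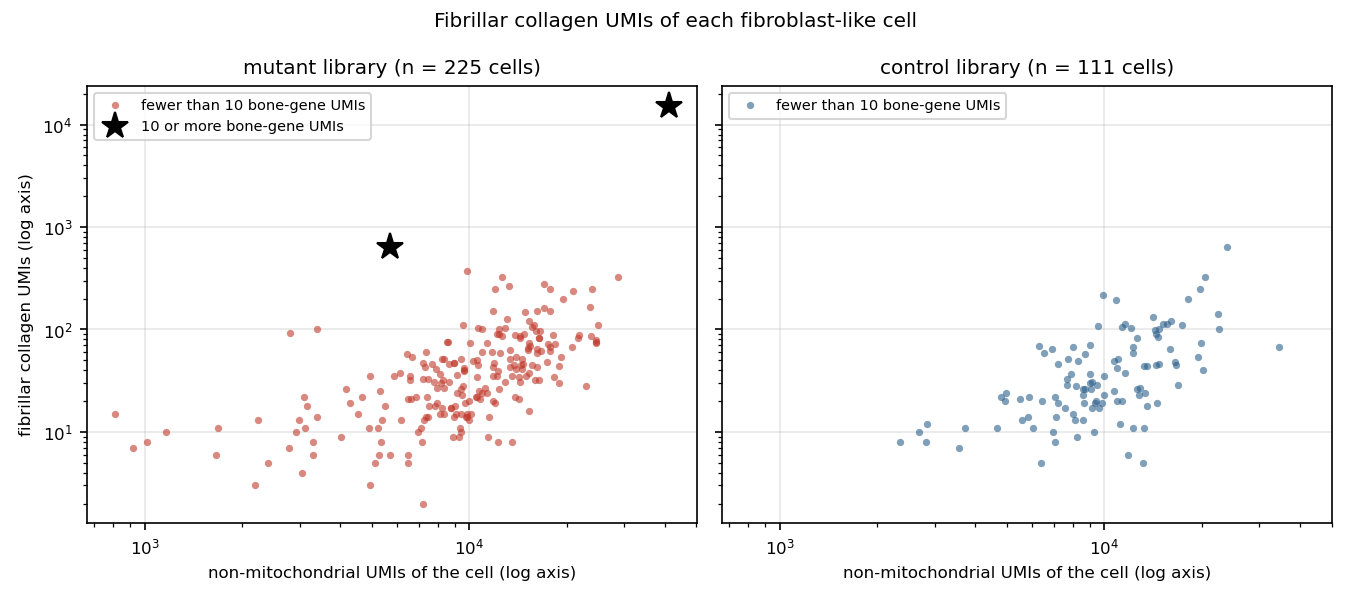
Fibrillar collagen UMIs of each fibroblast-like cell against its non-mitochondrial UMIs (both log axes), mutant library (225 cells) left of the control library (111 cells). Stars mark the 2 mutant cells with at least 10 UMIs of Bglap, Bglap2 and Ibsp, the higher of which holds 15239 fibrillar UMIs.

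Of 36 members measured in fibroblast-like cells, 6 were higher in the mutant library (2.74% of all 8604 genes measured) and 7 were lower (4.22%). The higher ones were Col1a1, Col1a2, Col2a1, Col11a1, Col11a2 and Col25a1. Col1a1 had 4900.3 CPM in the mutant and 1671 CPM in the control library, with 69.5% of its mutant UMIs in 1 cell, and its ratio of 2.93 (2.80 to 3.07) became 0.858 without the bone-gene cells. Col1a2, at 4855 and 2253 CPM with a ratio of 2.16 (2.07 to 2.25), became 1.01. Col11a1, a minor fibrillar chain, had 283 and 144 CPM with a ratio of 1.96 (1.66 to 2.33), and 1.28 without these cells. Col11a2 had 67.8 and 3.30 CPM, with 62.5% of its mutant UMIs in 1 cell, and its ratio of 20.5 (7.87 to 76.2) became 0.747. Col2a1, the main collagen of cartilage, had 79 UMIs in 4 mutant cells and 0 in the control library, at least 12.9-fold higher against a floor of 3 UMIs, and 5 UMIs were left without these cells. The 28 mutant UMIs of Col24a1 lay in 2 cells, and none was left. Of the 6, Col25a1 still met the rule without these cells, at 559.8 CPM in the mutant and 337 CPM in the control library with a ratio of 1.66 (1.49 to 1.86), and at 1.69 without the bone-gene cells. Its UMIs lay in 106 of 225 mutant and 38 of 111 control cells. Of these UMIs, 1378 in the mutant and 405 in the control library lay in Slc47a1 cells, which were 190 of 225 mutant and 75 of 111 control cells. Within Slc47a1 cells its ratio was 1.38 (1.24 to 1.55), or 1.41 (1.26 to 1.58) without the bone-gene cells, and did not reach the fold. With the highest cell of each library left out instead, its ratio there was 1.519 (1.348 to 1.715), which met the rule.

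The 7 members lower in mutant fibroblast-like cells included the basement-membrane genes Col15a1, Lamc3 and Lama4. Col15a1 had 78.2 CPM in the mutant and 149 CPM in the control library, a ratio of 0.527 (0.428 to 0.649). Lamc3 had 22.2 and 47.9 CPM with a ratio of 0.463 (0.315 to 0.682), and Lama4 53.2 and 80.1 CPM with a ratio of 0.665 (0.508 to 0.873). Among the rest, the transmembrane Col13a1 had 30.7 and 53.7 CPM (0.571, 0.405 to 0.808) and the collagen VI chain Col6a3 had 39.1 and 71.8 CPM (0.545, 0.404 to 0.736). Col9a2 had 7.26 and 27.2 CPM (0.267, 0.141 to 0.487) and Col5a3 10.9 and 19.8 CPM (0.550, 0.305 to 0.995). Without the bone-gene cells Lama4 stood at 0.668 (0.509 to 0.877), just short of the fold. Col5a3 then stood at 0.560 (0.311 to 1.01), with an interval that held 1. Neither met the rule although both ratios barely moved. The mix of fibroblast-like cells differed beside these results, since Slc6a13 cells were 23 of 225 in the mutant and 31 of 111 in the control library. Ratios of these members within Slc6a13 cells, which for Lamc3 ran the other way, are given below. Pericyte markers differed too, at a summed 237 CPM with 2 of 8 at 0 in the mutant and 1509 CPM with 1 of 8 at 0 in the control library. Their part in the ratios was not tested.

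Within Slc6a13 cells 6 of 21 members measured were higher in the mutant library (16.7% of genes) and 0 were lower (8.36%). Of the 12 basement-membrane members among the 21, Lama1, Col4a6, Col4a5 and Lamc1 met the rule and the other 8 did not, with Col4a1 at 1.13 (0.840 to 1.504) and Lama2 at 1.34 (1.09 to 1.64). The basement-membrane sum was 7846 CPM in the mutant and 4666 CPM in the control library, a ratio of 1.68 (1.55 to 1.82). Lama1 had 1535 and 599 CPM with a ratio of 2.56 (2.09 to 3.15), Col4a6 793 and 283 CPM with a ratio of 2.81 (2.09 to 3.79), and Col4a5 919 and 416 CPM with a ratio of 2.21 (1.71 to 2.86). Lamc1 (1.55, 1.21 to 1.99), Col12a1 (1.96, 1.42 to 2.71) and Col23a1 (1.65, 1.01 to 2.69) were the others. With the highest cell of each gene left out of each library, Lama1 stood at 2.12, Col4a6 at 2.38 and Col4a5 at 2.15, while Lamc1 and Col23a1 dropped below the fold at 1.45 and 1.22. The collagen VI chain Col6a1, not called with all cells, then met the rule as lower at 0.612 (0.366 to 0.991). Col15a1 and Col13a1, lower in the mutant class as a whole, had ratios of 1.35 (1.07 to 1.71) and 1.06 (0.687 to 1.62) in Slc6a13 cells. Lamc3, also lower in the class as a whole, had 50 mutant and 55 control UMIs in Slc6a13 cells. Its ratio there was 1.498 (1.001 to 2.238), the other way and just short of the fold. Lama4 stood at 1.39 (0.802 to 2.40), Col9a2 at 0.974 (0.451 to 2.02) and Col5a3 at 1.88 (0.597 to 6.10), with intervals that held 1. These values rest on 23 mutant and 31 control cells. Pericyte markers in them summed to 2706 CPM in the mutant and 6857 CPM in the control library, and their part in the ratios was not tested. Within Slc47a1 cells 3 of 23 members were higher (2.38%), namely Col1a1, Col1a2 and Col11a2, and 1 was lower (2.70%), Col6a3 at 24.0 CPM in the mutant and 75.5 CPM in the control library (0.317, 0.217 to 0.461). A single control cell held 41.2% of the control Col6a3 UMIs of Slc47a1 cells. In Slc6a13 cells Col6a3 ran the other way, at 169.9 CPM in the mutant and 57.3 CPM in the control library (2.97, 1.52 to 5.999), on 27 and 15 UMIs, too few for the rule. The fibrillar ratio of Slc47a1 cells was 2.17 with the single bone-gene cell it holds and 0.912 without.

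In endothelial-like cells 0 of 9 members measured were higher in the mutant library (3.43% of 4457 genes) and 2 were lower (4.42%). Col13a1 had 8 UMIs in 5 cells of the mutant library and 64 UMIs in 18 cells of the control library, 14.6 and 132 CPM, a ratio of 0.111 (0.0458 to 0.232). Col15a1 had 25.5 and 94.7 CPM with a ratio of 0.270 (0.137 to 0.499). Col4a1 had a ratio of 0.709 (0.611 to 0.823) and Col4a2 one of 0.828 (0.692 to 0.990), both short of the fold. Lama3, Lama4, Lama5, Lamb2 and Lamc1 had ratios between 0.653 and 1.25 with intervals that held 1.

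Endothelial-like cells were also divided by Plvap, the gene for the diaphragm protein of fenestrated endothelium, a split chosen after these values were seen. At least 1 Plvap UMI was found in 9 of 199 mutant cells (4.52%, Clopper-Pearson 2.09 to 8.41%) and in 19 of 142 control cells (13.4%, 8.25 to 20.1%). All 8 mutant and 64 control UMIs of Col13a1 lay in those cells, as did 13 of 14 and 44 of 46 UMIs of Col15a1. Among cells with Plvap, Col15a1 had 409 CPM in the mutant and 417 CPM in the control library (ratio 0.979, 0.484 to 1.85), and Col13a1 251 and 607 CPM (0.414, 0.171 to 0.866). Col4a1 had 1854 CPM in the mutant and 1973 CPM in the control library among cells with Plvap (0.940, 0.691 to 1.26), and 517 and 523 CPM among cells without it (0.988, 0.819 to 1.19). The basement-membrane sum of all endothelial-like cells had a ratio of 0.791 (0.724 to 0.864), against 1.08 (0.889 to 1.30) with Plvap and 0.970 (0.871 to 1.08) without. The ratios of Col4a1 and of the sum thus had intervals that held 1 both with and without Plvap, while Col13a1 remained lower in mutant cells with Plvap. The part of the share of Plvap cells in these ratios was not tested.

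**Figure D5:**
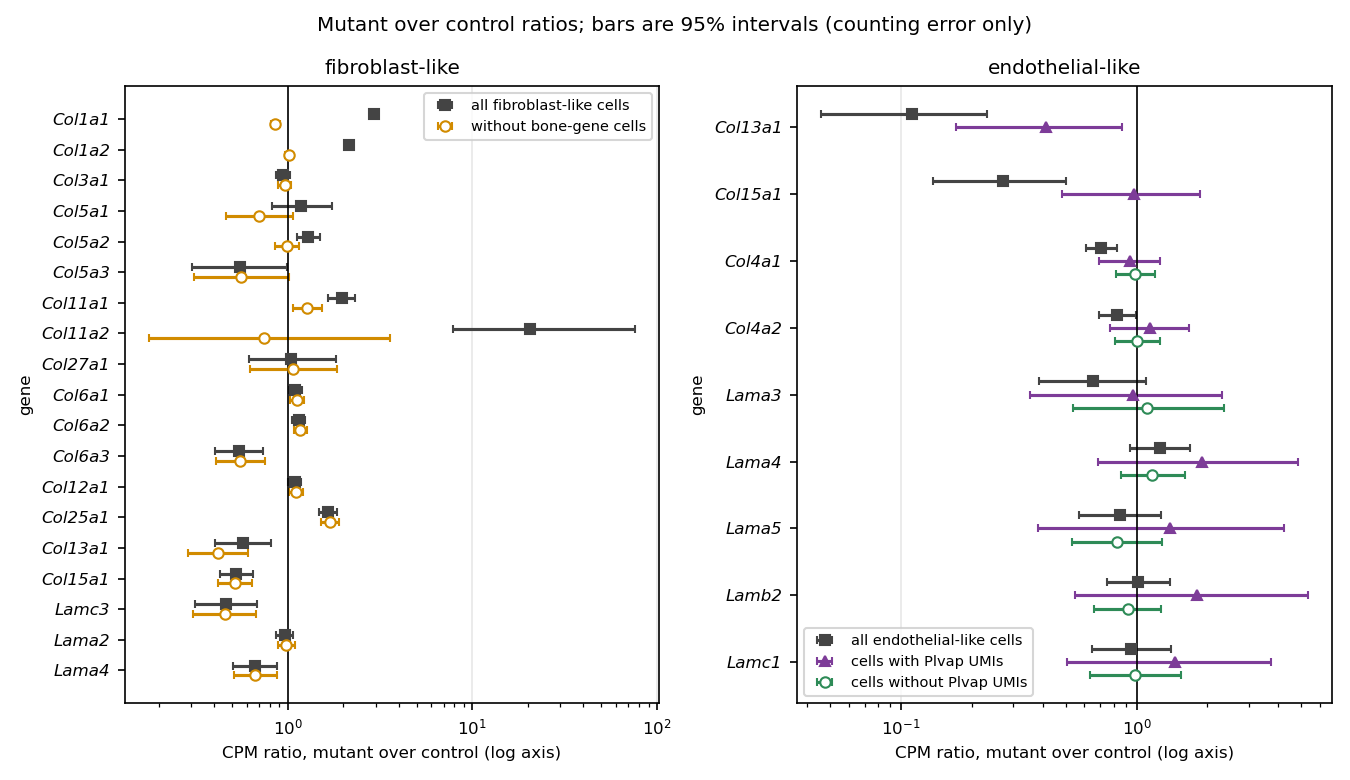
CPM ratios of mutant over control (log axis) with 95% intervals for counting error only, in fibroblast-like cells with and without the bone-gene cells (left), and in all endothelial-like cells, those with and those without Plvap UMIs (right, for strata with at least 10 UMIs). Col1a1 stands at 2.93 with the bone-gene cells and 0.858 without, and Col4a1 at 0.709 in all endothelial-like cells against 0.940 and 0.988 with and without Plvap.

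Mural-like cells allowed little. In the 25 mutant and 14 control cells 4 members reached 50 UMIs, namely Lama2, Col4a1, Lamc1 and Col4a2, and 0 were higher or lower by the rule (21.3% and 19.5% of the 169 genes measured). Lama2 had 65 UMIs in the mutant and 52 in the control library with a ratio of 1.44 (0.985 to 2.12), and Col4a1 53 and 53 UMIs with a ratio of 1.15 (0.773 to 1.72). The basement-membrane sum had a ratio of 1.24, with a lower bound of 1.03. The fibrillar sum ratio of 1.65 (1.07 to 2.58) turned to 0.869 when the highest cell of each library was left out, and 14 of 15 mutant Col3a1 UMIs (93.3%) lay in 1 cell. Mural-like cells were shallow, at medians of 1441 UMIs in the mutant and 2124.5 in the control library, and 8 of 25 and 1 of 14 could not be thinned to 1000 UMIs. Their choroid plexus epithelium markers summed to 10734 and 4260.0 CPM, with 5 of 8 at 0 in each library. Endothelial markers in them summed to 277 CPM in the mutant, with 6 of 8 at 0, and to 1901 CPM in the control library, with 0 of 8 at 0. Mitochondrial UMIs passed 10% in 17 of 25 mutant and 4 of 14 control cells. The part of these differences in the ratios was not tested.

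Other classes gave few differences. In astrocyte-like cells 1 of 23 members was higher in the mutant library (2.82%) and 2 were lower (1.97%). These were Col9a2 at 7.88 and 3.24 CPM (2.43, 1.27 to 4.45), and Col4a1 at 14.8 and 23.3 CPM (0.635, 0.420 to 0.927) and Lama3 at 15.3 and 25.8 CPM (0.591, 0.394 to 0.856). The Col4a1 level there was 1.39% of that in mural-like cells. Lama2, the member with the most UMIs there, had a ratio of 1.28 (1.21 to 1.34) and did not reach the fold. In ependymal-like cells 0 of 17 were higher (1.92%) and 2 lower (5.68%), Lama2 at 13.5 and 53.3 CPM (0.254, 0.147 to 0.421) and Lamc1 at 36.1 and 59.1 CPM (0.611, 0.423 to 0.879), each below 10% of its level in another class. In BAM-like cells 2 of 4 were higher (3.52%) and 0 lower (4.05%), Col1a2 at 21.6 and 10.3 CPM (2.10, 1.15 to 3.76) and Col14a1 at 32 and 56 UMIs (CPM ratio 1.83, 1.15 to 2.88). A single cell held 57.1% of the mutant and 62.5% of the control Col1a2 UMIs of that class. In choroid plexus epithelium-like cells 3 of 23 were higher (1.11%) and 1 lower (2.56%), namely Col1a1 at 5.62 and 3.24 CPM (1.73), Col14a1 at 10.2 and 6.73 CPM (1.52), Col25a1 at 3.29 and 1.25 CPM (2.64) and Lama2 at 1.74 and 3.31 CPM (0.525), all below 10% of another class. A single cell held 63.9% of the mutant and 75% of the control Col25a1 UMIs there. Members with high levels in that class stayed within the fold, with Col9a3 at a ratio of 1.05 (1.02 to 1.08) and Col8a1 at 1.07 (1.02 to 1.12).

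Microglia-like cells had 10 of 25 members higher in the mutant library (2.11% of 12824 genes) and 1 lower (5.11%), and all 11 stood below 1% of their level in another class. Col6a1 had 3.86 CPM in the mutant and 1.52 CPM in the control library (2.53, 1.80 to 3.61), Col6a2 3.35 and 1.46 CPM (2.29, 1.61 to 3.32) and Col8a1 1.96 and 0.698 CPM (2.81, 1.70 to 4.80). Col1a1 (9.33 and 5.94 CPM), Col1a2 (9.87 and 6.29 CPM), Col3a1 (1.61 and 0.984 CPM), Col4a1 (1.74 and 1.08 CPM), Col8a2 (1.96 and 1.14 CPM), Col11a1 (1.45 and 0.794 CPM) and Col12a1 (2.40 and 1.46 CPM) had ratios from 1.57 to 1.83. Lama2, at 4.24 and 6.51 CPM, was the lower one (0.651, 0.520 to 0.813). These directions ran beside the numbers of cells that hold the genes, with 225 fibroblast-like cells in the mutant against 111 in the control library and 312 astrocyte-like cells against 1500. The part of free RNA in them was not tested. The members that microglia-like cells held at higher levels stayed within the fold, with Col27a1 at 1.15 (1.11 to 1.19) and Col15a1 at 0.855 (0.788 to 0.927).

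Genes that work with collagens and laminins were read from 3 lists of 39 genes in all, namely basement-membrane partners, receptors, and collagen modifying and processing enzymes. In fibroblast-like cells 0 of 8 partners, 0 of 16 enzymes and 1 of 6 receptors measured met the rule, against 2.74% of all genes higher and 4.22% lower. The exception was Itga1, an integrin chain that binds collagen, at 18.6 CPM in the mutant and 40.4 CPM in the control library (0.459, 0.300 to 0.700), or 1.54% of its level in mural-like cells. Within Slc6a13 cells, which held 38 of its 46 mutant and 33 of its 49 control UMIs, Itga1 was instead higher in the mutant library, at 239 and 126 CPM (1.90, 1.16 to 3.12). Ddr2, a collagen receptor kinase, was higher there too, at 226.5 and 111 CPM (2.05, 1.22 to 3.46), so that 2 of 4 receptors met the rule (16.7% of all genes higher), against 0 of 3 partners and 0 of 4 enzymes. Within Slc47a1 cells 1 of 15 enzymes met it, the lysyl hydroxylase gene Plod2 at 49.7 and 78.9 CPM (0.630, 0.464 to 0.862; 2.70% of all genes lower), and 0 of 8 partners and 0 of 4 receptors did. Over all fibroblast-like cells Serpinh1, the collagen chaperone, stood at 841 and 846 CPM with a ratio of 0.994 (0.922 to 1.07). In endothelial-like cells 1 of 5 partners and 2 of 7 enzymes were lower in the mutant library and 0 of 5 receptors differed by the rule, against 3.43% of all genes higher and 4.42% lower. Hspg2, which encodes perlecan, had 159 and 247 CPM (0.642, 0.482 to 0.853), the lysyl hydroxylase gene Plod3 32.8 and 65.9 CPM (0.498, 0.263 to 0.915) and the prolyl hydroxylase subunit P4ha1 49.2 and 86.4 CPM (0.569, 0.338 to 0.945). Hspg2 had a ratio of 1.31 (0.827 to 2.02) among cells with Plvap and 0.954 (0.632 to 1.45) among those without. Among cells without Plvap, Plod3 had a ratio of 0.589 (0.285 to 1.196) and P4ha1 one of 0.641 (0.368 to 1.11). None of the 3 genes measured over these lists in mural-like cells met the rule, against 21.3% of all genes higher and 19.5% lower.

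Cells in no class held many of the members' UMIs. The 1084 mutant and 769 control cells held 30.4% and 23.3% of the fibrillar UMIs and 24.0% and 11.3% of the basement-membrane UMIs. Col25a1 had 721 CPM in the mutant and 329 CPM in the control library there (2.19, 2.06 to 2.33), and Lama2 319.8 and 320.0 CPM (interval of the ratio 0.934 to 1.07). Col1a1 had 878 and 288 CPM, with 55.6% of its mutant UMIs in 1 cell. Of these cells, 249 mutant and 99 control cells had exactly 3 of the 8 fibroblast markers on, 1 short of the gate.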

How the data were processed

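Cells sorted from whole brain were sequenced as 1 droplet library per genotype (10x Next GEM 3′ v3.1, per the labels' protocols). The authors deposited raw UMI counts per gene and barcode, made with Cell Ranger 7.1.0 per the file headers, and the submitters' processing notes name GRCm38.p6 and mm10. No label or header states further upstream settings. Barcode and gene lists were deposited as text.

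From these counts, cells with at least 500 genes were kept with no mitochondrial limit, and doublets were called per library with Scrublet (scanpy 1.11.5) and removed. A marker was on with at least 1 UMI and a level of at least 10% of the mean of its top 50 cells. A class needed 4 of 8 markers, pericytes and smooth muscle were joined as mural-like, and cells of more than 1 class were set aside as mixed. For each class and library the UMIs were added up and given as CPM, with exact Poisson intervals for ratios and Clopper-Pearson intervals for shares at 95%, which cover counting error only. Thinning drew 1000 UMIs per cell and left out shallower cells. With 1 library per genotype no test between genotypes was possible, and no p-value is given. The size rule was run over all genes with at least 50 UMIs in a class, and percentages after counts are the share of all such genes that met it in that direction. The ratio code was tested on simulated Poisson counts only, which do not contain the spread between cells of the real data. Full values were given for the 6 members with the highest level in fibroblast-like, mural-like and endothelial-like cells, every member that met the size rule, and up to 3 partners per list. The members, lists and comparisons were chosen with earlier results of these data known. The Plvap split, the bone-gene cells and the cells singled out were chosen after their values were seen. Scaling by trimmed means used edgeR 4.0.16. Gene positions and promoter windows came from tables of GRCm38.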

Additional observations from a re-analysis of the deposited data

Results flagged for a closer look

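The summed basement-membrane level went opposite ways between genotypes in 2 classes. Astrocyte-like cells had 1007 CPM in the mutant and 835 CPM in the control library, a ratio of 1.206, and ependymal-like cells had 400.4 and 517 CPM, a ratio of 0.7746. The difference between these ratios was not tested. Mitochondrial UMIs passed 10% in 114 of 312 mutant and 921 of 1500 control astrocyte-like cells, and in 16 of 102 and 45 of 89 ependymal-like cells. Endothelial markers in ependymal-like cells summed to 6.45 CPM in the mutant, with 3 of 8 at 0, and to 76.3 CPM in the control library, with 0 of 8 at 0. The part of these in the ratios was not tested. Cells in no class, which the comparisons leave out, held 30.42% of the fibrillar UMIs of the mutant library and 23.26% of those of the control library.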

How the results depend on the processing

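With mitochondrial UMIs of at most 10%, the ratios of mutant over control were 0.762 for the basement-membrane and 2.522 for the fibrillar sum of fibroblast-like cells, 2.896 for the fibrillar sum of mural-like cells, 1.461 for the basement-membrane sum of Slc6a13 cells and 2.658 for the fibrillar sum of Slc47a1 cells. Fibroblast-like cells then held 52.34% of mutant and 25.75% of control fibrillar UMIs, fibroblast-like, mural-like and endothelial-like cells together 26.51% and 19.19% of basement-membrane UMIs, and the Col1a2 ratio of BAM-like cells turned to 0.8934. With 3 of 8 markers these ratios were 0.9121 and 1.942 in fibroblast-like, 2.13 in Slc6a13 and 1.668 in Slc47a1 cells, and the shares 73.41% and 41.1%, and 34.88% and 16.3%. With 5 of 8 markers the fibroblast-like ratios were 0.8021 and 1.104, the mural-like basement-membrane ratio 1.499, and the shares 8.544% and 13.78%, and 14.42% and 11.48%. The Col1a1 and Col11a2 ratios of fibroblast-like cells turned to 0.9853 and 0.3599, and 6 fibroblast-like and 1 mural-like members met the size rule, against 13 and 0. The cell with 15239 fibrillar UMIs has 4 markers on. With doublets kept the shares were 50.32% and 27.11%, and 23.18% and 13.37%. With equal weight per cell the fibroblast-like ratios were 0.9003 and 1.508, the fibrillar mural-like ratio turned to 0.9952 and the endothelial-like basement-membrane ratio was 0.8953. Without the top cell of each library the fibrillar ratios were 1.104 in fibroblast-like, 0.8685 in mural-like and 1.023 in Slc47a1 cells, 8 fibroblast-like and 1 endothelial-like members met the rule, and the shares were 32.32% and 26.06%, and 23.29% in the mutant library. With mixed cells assigned, the control basement-membrane share was 14.84%. Without the bone-gene cells, chosen after seeing the data, the fibrillar ratios were 0.9585 in fibroblast-like and 0.9119 in Slc47a1 cells, 6 members met the rule, the mutant fibrillar share was 36.96%, and the Col1a1 and Col11a2 ratios were 0.8578 and 0.747. Without Plvap cells, also chosen after seeing the data, the endothelial-like basement-membrane ratio was 0.9695 and 0 members met the rule. At least 20 UMIs gave 1 mural-like member, and at least 100 UMIs gave 0 endothelial-like members.

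Over all alternatives the named members' ratios kept direction and call in 199 values, kept direction without the call in 61 and turned in 5. The headline values, tallied apart from these ratios, were the same in 64 cases, moved in 47 and turned in 4. Leaving out a replicate was not possible with 1 library per genotype. No paired analysis was possible because each genotype has 1 library. Few cells limit the mural-like and Slc6a13 values, which rest on 25 and 14, and on 23 and 31, mutant and control cells.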
